A study of Arabidopsis thaliana with 10 samples.

Results

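Of the 16393 Arabidopsis thaliana genes listed at both times studied, 195 were lower in seedlings of a DIG1 or DIG2 line than in GFP seedlings in all 3 comparisons available: DIG1 at 4 h, DIG2 at 4 h and DIG1 at 10 d. These 195 genes were chosen by their measured values. A gene was taken when log2((line mean + 0.5)/(GFP mean + 0.5)), computed on RPKM values, was -0.8 or lower in each comparison and both replicates of the line lay below both GFP replicates. The lower level in these 3 comparisons is therefore how the genes were selected, and it is described below without a test. RPKM corrects the reads of a gene for its length and for the depth of the library.

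Whole Col-0 seedlings of 3 kinds were compared in 5 groups of 2 replicates, 10 libraries in all, and every seedling received dexamethasone, a steroid that turns on transgenes placed under its control. At 4 h the groups were DIG1, DIG2 and GFP seedlings 3 d old, grown in the dark and given 10 µM dexamethasone for 4 h. At 10 d the groups were DIG1 and GFP seedlings grown in long days for 10 d with dexamethasone, at 500 nM by the treatment text, where the growth text has the same number in mM. DIG1 and DIG2 are described by the submitters as abscisic acid-responsive transcription factors, and GFP seedlings were the control. The promoter that drives each transgene, the number of independent lines and the origin of the replicates are not given in the sources used here, and p-values therefore rest on the spread between libraries, which may be technical. The 4 h and 10 d tables were normalized separately.

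Abscisic acid is the plant hormone of drought and seed dormancy. It is bound by soluble receptors, which release a kinase cascade that activates bZIP factors, and these bind promoter elements with an ACGTG core in genes for dehydrins, caleosins and enzymes that make protective solutes. Light signalling uses related elements: bZIP and bHLH factors at G-boxes, with the letters CACGTG, act on genes for the photosystem antenna, chlorophyll synthesis and carotenoid synthesis, many of them together with B-box zinc finger proteins. Seedlings kept in the dark are etiolated, with plastids that hold protochlorophyllide and have not yet formed thylakoids.

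The raised transcripts were clear of the control in every library. AT3G48510 was at 1716 and 1438 RPKM in DIG1 and 1.90 and 1.54 RPKM in DIG2, against 0.551 and 1.43 RPKM in GFP seedlings at 4 h, and at 1891 and 1775 RPKM in DIG1, against 1.42 and 0.935 RPKM in GFP seedlings at 10 d. The sample titles give another locus for DIG1, AT3G45810, which was not analysed here. AT5G50360, the locus in the DIG2 titles, was at 4879 and 2685 RPKM in DIG2, against 0.876 and 0.768 RPKM in GFP seedlings. Whole reads worked out from the RPKM steps gave 9714125 to 15417186 reads a library at 4 h and 11797469 to 17661701 at 10 d. The members had a median of 88 to 124 reads in the DIG1 and DIG2 libraries at 4 h and 48 to 50 in the DIG1 libraries at 10 d, against 285 to 531 in the GFP libraries. In all these bulk samples, fewer cells of a type and less RNA per cell cannot be told apart.

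Upstream sequences of 4 members are shown because they carry the G-box, the ACGTG core or the AC element in different arrangements and belong to genes described below: RD20 of the drought response, LHCB2.3 of the antenna, PHS1 of starch breakdown and HCT of lignin synthesis. Each is the 300 bases before the annotated gene start, 5′ to 3′ on the gene's strand, from the TAIR10.1 assembly of RefSeq. Capitals mark the motifs searched on both strands: CACGTG (G-box), ACGTG (the core of abscisic acid response elements, 2 of which lie within every G-box, 1 on each strand), GATAAG (I-box), AAAATATCT (evening element), CCGAC (the core of dehydration response elements) and ACCTACC or ACCAACC (AC elements of phenylpropanoid genes).
RD20 (chr2:14146556-14146855, minus strand): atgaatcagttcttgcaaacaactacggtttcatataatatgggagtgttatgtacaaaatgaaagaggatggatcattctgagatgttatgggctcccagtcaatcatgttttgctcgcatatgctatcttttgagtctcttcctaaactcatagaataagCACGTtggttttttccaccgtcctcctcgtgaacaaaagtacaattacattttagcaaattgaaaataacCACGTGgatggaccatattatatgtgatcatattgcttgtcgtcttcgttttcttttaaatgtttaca
LHCB2.3 (chr3:10255606-10255905, plus strand): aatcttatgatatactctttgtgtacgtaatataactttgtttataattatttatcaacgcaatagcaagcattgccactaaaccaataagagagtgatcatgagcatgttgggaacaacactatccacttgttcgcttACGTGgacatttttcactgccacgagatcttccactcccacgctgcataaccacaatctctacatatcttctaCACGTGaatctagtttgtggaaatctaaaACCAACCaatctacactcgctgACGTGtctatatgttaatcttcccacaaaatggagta
PHS1 (chr3:11252507-11252806, plus strand): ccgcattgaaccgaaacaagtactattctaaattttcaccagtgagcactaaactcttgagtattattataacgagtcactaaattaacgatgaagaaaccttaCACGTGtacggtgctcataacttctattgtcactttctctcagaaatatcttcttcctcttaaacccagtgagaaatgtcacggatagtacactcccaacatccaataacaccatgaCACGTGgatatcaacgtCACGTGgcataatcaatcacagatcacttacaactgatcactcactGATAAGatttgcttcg
HCT (chr5:19838236-19838535, minus strand): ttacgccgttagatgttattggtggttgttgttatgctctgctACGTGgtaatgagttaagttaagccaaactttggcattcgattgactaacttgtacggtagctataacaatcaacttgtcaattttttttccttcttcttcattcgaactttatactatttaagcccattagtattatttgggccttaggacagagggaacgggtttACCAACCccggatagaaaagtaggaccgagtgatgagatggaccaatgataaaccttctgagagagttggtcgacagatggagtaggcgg
The RD20 window holds 1 G-box centred 65 bases before the gene start and 1 further ACGTG core. The LHCB2.3 window holds 1 G-box, 2 further ACGTG cores and 1 AC element. The PHS1 window holds 3 G-boxes and 1 I-box, and the HCT window holds 1 ACGTG core and 1 AC element, centred 87 bases before the start.

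Over all members, the G-box was in 29 of 195 windows, or 14.9%, and in 1294 of 16338 windows of all genes listed at both times, or 7.92%. The ACGTG core was in 71 members, or 36.4%, against 25.7% of all genes. Among genes with no G-box, 42 of 166 members, or 25.3%, had an ACGTG core, against 2898 of 15044 genes, or 19.3%. AC elements were in 15 members, or 7.69%, against 4.44%. The I-box was in 29 members, or 14.9%, against 14.8%, the CCGAC core in 28 members, or 14.4%, against 15.3%, and the evening element in 3 members, or 1.54%, against 2.84%. These shares are a description of letters within a fixed window and carry no test. Median GC content of the windows was 31.3% in members and 31.3% in all genes. Of the role groups used below, put together with values known, 4 of 7 starch and sugar genes had a G-box. So did 2 of 3 glutathione transferase, 2 of 6 cell wall and 1 of 4 antenna genes. A G-box was also in 1 of 6 chlorophyll and carotenoid genes and 1 of 10 abscisic acid and drought genes. None of the 10 phenylpropanoid, 9 other photosynthesis, 8 glucosinolate or 3 B-box genes had one. Groups this small do not tell the roles apart. Another annotated gene reached into the window of 45 members.

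**Figure D1:**
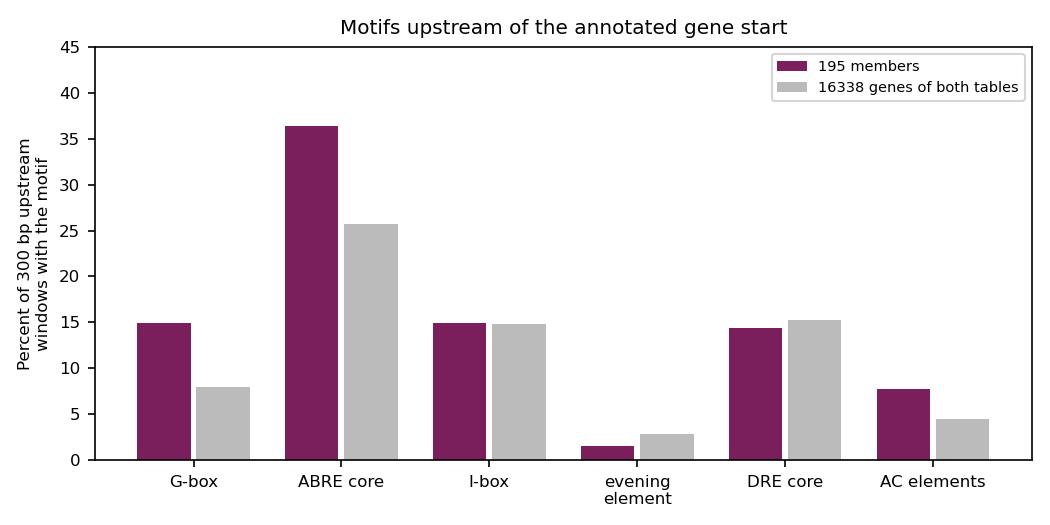
Percent of 300 bp upstream windows that hold each motif, for the 195 members (dark bars, left) and for all 16338 genes of both tables with a window (grey bars, right); ABRE core is the ACGTG core and DRE core the CCGAC core. The G-box was in 14.9% of members and 7.92% of all genes, and the I-box in 14.9% and 14.8%.

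By the rule alone, 378 genes, or 2.31% of those in both tables, were lowered in DIG1 at 4 h, 403, or 2.46%, in DIG2 at 4 h and 3330, or 20.3%, in DIG1 at 10 d. The rule was met in both 4 h comparisons by 210 genes, and 195 of these also met it at 10 d. The 4 h comparisons share their GFP libraries. Among members, the log2 change had a median of -1.14 in DIG1 at 4 h, with quartiles of -1.45 and -0.92. In DIG2 at 4 h the median was -1.31, with quartiles of -1.57 and -1.07. The 10 d changes were wider, with a median of -2.63 and quartiles of -3.53 and -1.98, beside an SD over all genes of 1.15 at 10 d, 0.337 in DIG1 at 4 h and 0.355 in DIG2 at 4 h. The 10 d change was the lowest of the 3 for 177 members. It was -3 or lower for 77 members, against 2 members in either 4 h comparison. At 10 d, 64 members had a DIG1 mean under 1 RPKM, 10 members were listed at 0 in at least 1 DIG1 library and 2 in both. The members nearest the threshold on its inner side were FLR1, AT4G09060, CYP81F4 and NF-YC2, whose least negative changes were -0.8004, -0.8006, -0.8008 and -0.8015. The genes nearest to it outside were AT5G64170 at -0.799, AT4G11610 at -0.797, AT3G45310 at -0.795 and AT3G20640 at -0.795. Since 0.5 was added to each mean, changes of genes with low values are understated.

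Over all genes, limma on log2(RPKM + 0.5) with Benjamini-Hochberg adjustment called 522 genes higher (3.01%) and 962 lower (5.54%) in DIG1 than in GFP at 4 h. In DIG2 at 4 h it called 1281 genes higher (7.37%) and 1300 lower (7.48%), and in DIG1 at 10 d 5560 higher (31.9%) and 5439 lower (31.2%). Leaving out 1 library lowered the DIG1 total at 4 h to 747 without GFP replicate 1, 476 without GFP replicate 2, 817 without DIG1 replicate 1 and 684 without DIG1 replicate 2. The DIG2 total fell to 1034 without GFP replicate 1, 915 without GFP replicate 2 and 985 without DIG2 replicate 1. Since members had to be lower, the gene lists given below count only the other genes of each list, by these fits.

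**Figure D2:**
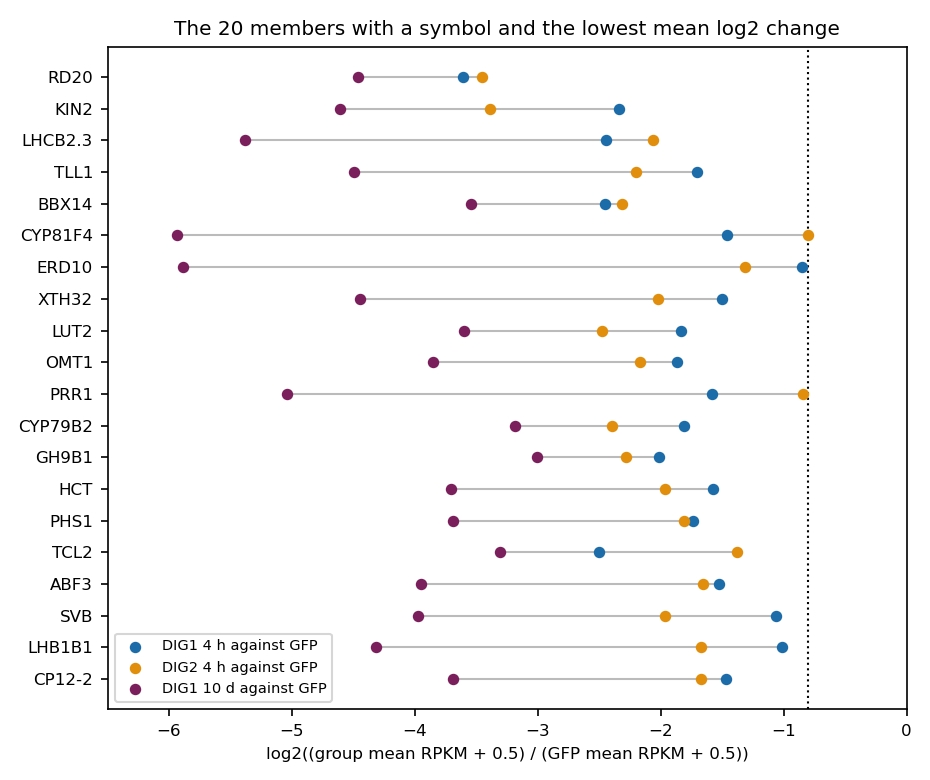
Log2((group mean RPKM + 0.5)/(GFP mean RPKM + 0.5)) of the 20 members with a gene symbol and the lowest mean over the 3 comparisons, 1 row a gene and 1 point a comparison; the dotted line is the threshold of -0.8. RD20 was at -3.61, -3.45 and -4.46, and CYP81F4 was at -1.46, -0.80 and -5.93.

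Genes of the abscisic acid and drought response included RD20 and KIN2, the members with the lowest mean change. RD20 (AT2G33380, 2:14144831-14146555), a drought-induced caleosin of lipid droplets, had 0.307 and 0.464 RPKM in DIG1 and 0.402 and 0.578 RPKM in DIG2, against 7.62 and 13.0 RPKM in GFP seedlings at 4 h. At 10 d RD20 had 1.25 and 0.174 RPKM in DIG1, against 25.5 and 27.0 RPKM in GFP seedlings. All 4 line libraries at 4 h were below 1 RPKM. The DIG1 libraries at 10 d were far apart but both under the lower GFP library, as the rule required. KIN2 (AT5G15970), a small protein induced by cold and abscisic acid and also called COR6.6, had 3.07 and 3.16 RPKM in DIG1 and 1.34 and 1.16 RPKM in DIG2, against 15.0 and 20.7 RPKM in GFP seedlings at 4 h. At 10 d KIN2 had 6.41 and 0.812 RPKM in DIG1, against 87.6 and 112 RPKM in GFP seedlings. KIN2 was lower in both DIG2 libraries than in both DIG1 libraries at 4 h. ERD10 (AT1G20450), a dehydrin, had 37.0 and 34.5 RPKM in DIG1 and 23.1 and 28.6 RPKM in DIG2, against 55.7 and 74.3 RPKM in GFP seedlings at 4 h. At 10 d ERD10 had 1.45 and 0.475 RPKM in DIG1, against 86.6 and 85.2 RPKM in GFP seedlings, and its log2 changes were -0.85, -1.31 and -5.88 in DIG1 at 4 h, DIG2 at 4 h and DIG1 at 10 d. The 10 d change of ERD10 was the second lowest of the 20 members plotted, and its DIG1 change at 4 h was the smallest of them.

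P5CS1, the enzyme of the rate-limiting step of proline synthesis, had 7.40 and 6.16 RPKM in DIG1 and 4.38 and 5.64 RPKM in DIG2, against 12.3 and 16.3 RPKM in GFP seedlings at 4 h. At 10 d P5CS1 had 28.3 and 2.91 RPKM in DIG1, against 110.2 and 126 RPKM in GFP seedlings, with DIG1 replicate 1 closer to GFP than replicate 2. ABF3 (AT4G34000), a bZIP factor that binds abscisic acid response elements, had 21.4 and 22.3 RPKM in DIG1 and 20.7 and 19.2 RPKM in DIG2, against 63.3 and 64.2 RPKM in GFP seedlings at 4 h. At 10 d ABF3 had 3.79 and 3.24 RPKM in DIG1, against 57.0 and 66.4 RPKM in GFP seedlings. Replicates of ABF3 lay close together in every group, and the DIG1 and DIG2 libraries at 4 h were all far below GFP. NF-YC2, a subunit of the CCAAT-binding complex, had 2.77 and 1.22 RPKM in DIG1 and 1.69 and 1.39 RPKM in DIG2, against 3.6 and 4.10 RPKM in GFP seedlings at 4 h. At 10 d NF-YC2 had 0.586 and 0.868 RPKM in DIG1, against 20.3 and 25.6 RPKM in GFP seedlings. For NF-YC2 the line library nearest to GFP at 4 h was DIG1 replicate 1. Also members were NCED3, which cleaves carotenoids in abscisic acid synthesis, with log2 changes of -1.51, -1.38 and -2.17, the receptor RCAR3 with -1.04, -0.81 and -0.95, and the bHLH gene AT1G05805 with -1.95, -2.20 and -2.76, each in DIG1 at 4 h, DIG2 at 4 h and DIG1 at 10 d. NCED3 was low throughout, with 1.47 and 1.78 RPKM in GFP seedlings at 4 h.

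Other genes of the hormone response moved in both directions. Of 8 other listed abscisic acid responsive genes at 4 h, limma called 2 higher in DIG1, with a median log2 of 0.18 over the 8, and 2 higher and 1 lower in DIG2, with a median of 0.28. At 10 d 1 of 12 others was higher and 7 were lower in DIG1, with a median of -1.84 beside 0.05 over all genes. Of 15 other abscisic acid pathway factors, 3 were higher and 4 lower in DIG1 at 4 h, and 3 higher and 2 lower in DIG2. At 10 d 6 of 14 were higher and 5 lower.

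**Figure D3:**
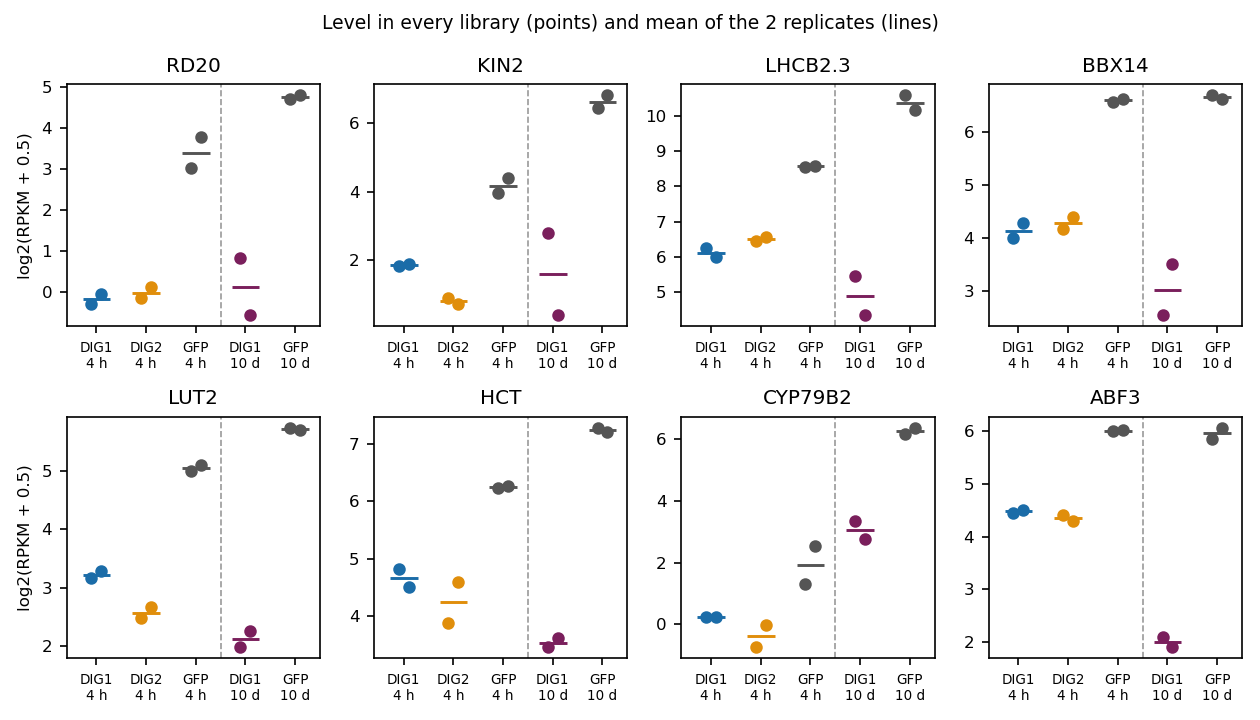
Level of 8 members in every library, as log2(RPKM + 0.5), with a line at the mean of the 2 replicates; a dashed line parts the 4 h groups (left) from the 10 d groups (right), which were normalized separately. KIN2 and RD20 show DIG1 replicates at 10 d that lie far apart, and ABF3 shows replicates that lie close together.

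Of 19 listed genes for antenna proteins of the photosystems, 4 were members. LHCB2.3 (AT3G27690), a protein of the trimeric photosystem II antenna, had 75.7 and 62.9 RPKM in DIG1 and 87.6 and 93.3 RPKM in DIG2, against 374 and 383 RPKM in GFP seedlings at 4 h. At 10 d LHCB2.3 had 43.4 and 19.8 RPKM in DIG1, against 1529.8 and 1143 RPKM in GFP seedlings. Its groups were well apart at both times. LHB1B1 (AT2G34430), of the other major antenna type, had 358 and 300.2 RPKM in DIG1 and 222 and 195 RPKM in DIG2, against 606 and 721 RPKM in GFP seedlings at 4 h. At 10 d LHB1B1 had 61.3 and 42.5 RPKM in DIG1, against 1265 and 823 RPKM in GFP seedlings. At 4 h both DIG2 libraries of LHB1B1 were below both DIG1 libraries. LHCB2.1 had log2 changes of -1.36, -1.81 and -2.80, and LHCB5, a minor monomeric antenna protein, had -0.80, -1.07 and -2.92, in DIG1 at 4 h, DIG2 at 4 h and DIG1 at 10 d. LHCB5 was the most abundant of the 4, with 1772 and 1739.7 RPKM in GFP seedlings at 4 h and 3988 and 3467 RPKM in GFP seedlings at 10 d. Coding sequences of the LHCB1 and LHCB2 genes are near-identical, so how reads were split between copies is uncertain.

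Of the 15 other antenna genes, limma called 3 lower in DIG1 at 4 h and 5 lower in DIG2 at 4 h. In DIG1 at 10 d, 14 of 15 were lower, with a median log2 of -1.86. Left without the 4 members, the antenna genes summed to 18360 and 12901 RPKM in DIG1 and 16977 and 15864 RPKM in DIG2, against 21547 and 23805 RPKM in GFP seedlings at 4 h. At 10 d the sum of these 15 was 18238 and 19229 RPKM in DIG1, against 59747 and 54105 RPKM in GFP seedlings. The summed level of the 15 antenna genes was below GFP in every line library, although most of them were not called at 4 h. CAB1 made up the largest part at 4 h, with 9577 and 11147 RPKM in GFP seedlings. The antenna genes mark green tissue in the light-grown seedlings at 10 d, while the 4 h seedlings were grown in the dark. The part of this sum in the other results was not tested.

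A further 9 members serve photosynthesis. CP12-2 (AT3G62410), a small protein that holds a pair of Calvin cycle enzymes together in the dark, had 9.30 and 13.9 RPKM in DIG1 and 10.4 and 9.55 RPKM in DIG2, against 35.0 and 31.0 RPKM in GFP seedlings at 4 h. At 10 d CP12-2 had 29.6 and 35.6 RPKM in DIG1, against 410.1 and 442 RPKM in GFP seedlings. DIG1 and DIG2 overlapped each other at 4 h, while the rule itself kept both lines below GFP. RBCS3B and RBCS1B, neighbouring genes for the Rubisco small subunit whose near-identical sequences make the split of reads uncertain, had 10 d changes of -4.08 and -2.47. At 10 d RBCS3B had 373 and 566 RPKM in DIG1, against 8703 and 7187 RPKM in GFP seedlings, the highest level of any member. CA1, a carbonic anhydrase of the chloroplast, had changes of -0.89, -0.87 and -4.82 in DIG1 at 4 h, DIG2 at 4 h and DIG1 at 10 d. FD1, a ferredoxin, PSBP-1, of the oxygen-evolving complex, CRR3, of the NAD(P)H dehydrogenase complex, and CaS, a thylakoid protein involved in calcium responses, had 10 d changes between -2.17 and -3.80. ELIP2, an early light-induced protein, had 7.31 and 7.53 RPKM in DIG1 and 2.56 and 2.66 RPKM in DIG2, against 19.7 and 20.7 RPKM in GFP seedlings at 4 h. At 10 d ELIP2 had 21.0 and 24.7 RPKM in DIG1, against 26.1 and 72.2 RPKM in GFP seedlings. The GFP libraries of ELIP2 at 10 d were far apart, and the lower one was close to DIG1. ELIP2 stood on the list of light signalling genes, of which 2 of 19 others were higher and 5 lower in DIG1 at 4 h, and 2 higher and 2 lower in DIG2. At 10 d 8 of 18 were higher and 4 lower.

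The pigments chlorophyll and carotenoid accounted for 6 members. HEMA1, glutamyl-tRNA reductase of the first committed step of tetrapyrrole synthesis, had 67.2 and 73.6 RPKM in DIG1 and 52.4 and 52.5 RPKM in DIG2, against 126 and 128 RPKM in GFP seedlings at 4 h. At 10 d HEMA1 had 53.2 and 73.0 RPKM in DIG1, against 331 and 228 RPKM in GFP seedlings. GUN5, the H subunit of magnesium chelatase, had log2 changes of -1.27, -1.67 and -2.39 in DIG1 at 4 h, DIG2 at 4 h and DIG1 at 10 d. PORB, a protochlorophyllide oxidoreductase, was one of the most abundant members in the dark, with 498 and 451 RPKM in DIG1 and 551 and 774 RPKM in DIG2, against 1585 and 1699 RPKM in GFP seedlings at 4 h. At 10 d PORB had 14.3 and 10.4 RPKM in DIG1, against 65.6 and 34.7 RPKM in GFP seedlings. As the rule required of every member, all PORB libraries of the lines were below every GFP library of their time. Of the 18 other chlorophyll synthesis genes, 1 was higher and 2 lower in DIG1 at 4 h, and 6 were lower in DIG2. At 10 d 6 of 17 were higher and 5 lower in DIG1.

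LUT2 (AT5G57030), the lycopene epsilon cyclase that leads to lutein, had 8.44 and 9.24 RPKM in DIG1 and 5.07 and 5.84 RPKM in DIG2, against 31.5 and 34.1 RPKM in GFP seedlings at 4 h. At 10 d LUT2 had 3.44 and 4.30 RPKM in DIG1, against 53.1 and 51.8 RPKM in GFP seedlings. DIG2 was below DIG1 at 4 h in both libraries. PSY, phytoene synthase of the first carotenoid step, had log2 changes of -1.28, -1.79 and -1.36, and BETA-OHASE 2, a carotene hydroxylase, had -2.20, -2.06 and -1.34, in DIG1 at 4 h, DIG2 at 4 h and DIG1 at 10 d. BETA-OHASE 2 was among the 18 members whose lowest change was at 4 h. Of the 12 other carotenoid genes, limma called 0 in DIG1 at 4 h, where 2 had an unadjusted p under 0.05 and limma voom on recovered reads also called 0. In DIG2 2 of the 12 were lower. At 10 d 2 of 12 were higher and 1 lower in DIG1.

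Of the B-box zinc finger genes, 3 with a CCT domain were members. BBX14 (AT1G68520) had 15.6 and 18.8 RPKM in DIG1 and 17.5 and 20.4 RPKM in DIG2, against 94.2 and 98.4 RPKM in GFP seedlings at 4 h. At 10 d BBX14 had 5.32 and 10.9 RPKM in DIG1, against 102 and 97.2 RPKM in GFP seedlings. BBX14 had similar levels in DIG1 and DIG2, and all line libraries were far below GFP. BBX15 had log2 changes of -0.83, -1.06 and -3.72 in DIG1 at 4 h, DIG2 at 4 h and DIG1 at 10 d. BBX17 (AT1G49130) had 6.28 and 8.15 RPKM in DIG1 and 34.0 and 26.9 RPKM in DIG2, against 58.8 and 69.6 RPKM in GFP seedlings at 4 h. At 10 d BBX17 had 0.285 and 0.523 RPKM in DIG1, against 3.67 and 2.51 RPKM in GFP seedlings. Of all members BBX17 differed most between DIG1 and DIG2, with both DIG1 libraries below both DIG2 libraries. Of the 12 other B-box genes, 6 were lower in DIG1 at 4 h, and 1 was higher and 6 lower in DIG2. At 10 d 4 of 11 were higher and 5 lower.

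A group of 10 members, put together with their values known, belongs to phenylpropanoid and lignin synthesis. OMT1 (AT5G54160), which methylates lignin precursors, had 35.8 and 30.3 RPKM in DIG1 and 21.1 and 32.5 RPKM in DIG2, against 121 and 122 RPKM in GFP seedlings at 4 h. At 10 d OMT1 had 12.2 and 23.8 RPKM in DIG1, against 246 and 289 RPKM in GFP seedlings. HCT (AT5G48930), an acyltransferase of monolignol synthesis, had 27.8 and 22.3 RPKM in DIG1 and 14.3 and 23.6 RPKM in DIG2, against 74.7 and 76.3 RPKM in GFP seedlings at 4 h. At 10 d HCT had 10.5 and 11.7 RPKM in DIG1, against 155 and 148 RPKM in GFP seedlings. For OMT1 and HCT, DIG2 replicate 2 overlapped the DIG1 libraries and replicate 1 lay below them. PRR1 (AT1G32100), pinoresinol reductase 1 of lignan synthesis, had 14.6 and 12.7 RPKM in DIG1 and 19.1 and 27.1 RPKM in DIG2, against 39.6 and 44.1 RPKM in GFP seedlings at 4 h. At 10 d PRR1 had 0.652 and 0.0987 RPKM in DIG1, against 24.2 and 32.4 RPKM in GFP seedlings. PAL1, the entry enzyme of the pathway, had log2 changes of -1.18, -0.88 and -2.50 in DIG1 at 4 h, DIG2 at 4 h and DIG1 at 10 d. The cinnamyl alcohol dehydrogenase genes ATCAD4 and CAD9 had 10 d changes of -3.04 and -3.89, the methyltransferase CCoAOMT1 -0.96, the monolignol glucosyltransferase UGT72E2 -3.70, the laccase LAC10 -2.15 and the flavonol rhamnosyltransferase UGT78D1 -3.87. LAC10 had only 1 and 0 reads in DIG1 at 10 d, against 50 and 42 in GFP seedlings. The median change of the 10 genes was -1.11 in DIG1 at 4 h, -1.44 in DIG2 at 4 h and -3.70 in DIG1 at 10 d, beside -1.14, -1.31 and -2.63 over all members. None of the 12 listed flavonoid genes was a member, but only 6 were listed at 4 h, so the rest could not be. With 195 members among 16393 genes, this says little for a list this short. Of the 6, 1 was higher in DIG1 at 4 h, and 1 was higher and 4 lower in DIG2. At 10 d 10 of 11 were lower in DIG1.

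Another 8 members make glucosinolates, the sulfur-rich defence compounds of the Brassicaceae, or supply their sulfur. CYP79B2 (AT4G39950), which oxidises tryptophan in the first step, had 0.692 and 0.674 RPKM in DIG1 and 0.0973 and 0.48 RPKM in DIG2, against 1.97 and 5.34 RPKM in GFP seedlings at 4 h. At 10 d CYP79B2 had 9.64 and 6.23 RPKM in DIG1, against 70.8 and 81.7 RPKM in GFP seedlings. Its GFP replicates at 4 h lay far apart, and its levels there were low. CYP79B3, which catalyses the same reaction, had log2 changes of -0.99, -1.39 and -2.44, and MYB34, a factor that acts on these genes, had -1.54, -1.45 and -3.51, in DIG1 at 4 h, DIG2 at 4 h and DIG1 at 10 d. CYP81F4 (AT4G37410), which modifies the indole ring, had 4.05 and 2.64 RPKM in DIG1 and 4.11 and 7.05 RPKM in DIG2, against 8.17 and 12.0 RPKM in GFP seedlings at 4 h. At 10 d CYP81F4 had 4.35 and 2.46 RPKM in DIG1, against 290.1 and 186 RPKM in GFP seedlings. The DIG2 change of CYP81F4 lay at the threshold, and DIG2 replicate 2 was close to the lower GFP library. CYP81F3, next to CYP81F4 on chromosome 4 and similar in sequence, so that the split of reads is uncertain, had a 10 d change of -1.45. The sulfotransferase SOT18 was at -1.99, the adenylylsulfate kinase AKN2 at -2.56 and sulfite reductase SIR at -1.02. Only 3 other listed glucosinolate genes were in the 4 h table, of which limma called 1 lower in DIG2 and 0 in DIG1, where 2 had an unadjusted p under 0.05 and limma voom called 0. At 10 d 10 of 11 others were lower and 1 higher in DIG1, with a median log2 of -1.72.

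Starch and sugar metabolism accounted for 7 members, also grouped with their values known. PHS1 (AT3G29320), the plastid glucan phosphorylase, had 11.1 and 10.9 RPKM in DIG1 and 8.81 and 12.0 RPKM in DIG2, against 34.5 and 41.3 RPKM in GFP seedlings at 4 h. At 10 d PHS1 had 4.76 and 3.14 RPKM in DIG1, against 64.5 and 49.5 RPKM in GFP seedlings. Levels in DIG1 lay within those in DIG2 at 4 h. SEX1, the glucan water dikinase that starts starch breakdown, had log2 changes of -1.12, -1.54 and -2.13, BAM2, a beta-amylase, -0.94, -0.83 and -2.80, and LSF1, a starch-binding regulator of breakdown, -0.90, -1.58 and -2.99, in DIG1 at 4 h, DIG2 at 4 h and DIG1 at 10 d. Sucrose synthase SUS4, the UDP-glucose pyrophosphorylase UGP1 and the trehalose phosphatase TPPI had 10 d changes of -2.96, -2.36 and -1.71. Reads were few at 10 d for SUS4, with 2 and 1 in DIG1, against 189 and 77 in GFP seedlings. TPPI had 1 and 3 reads in DIG1, against 9 and 17 in GFP seedlings at 10 d.

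**Figure D4:**
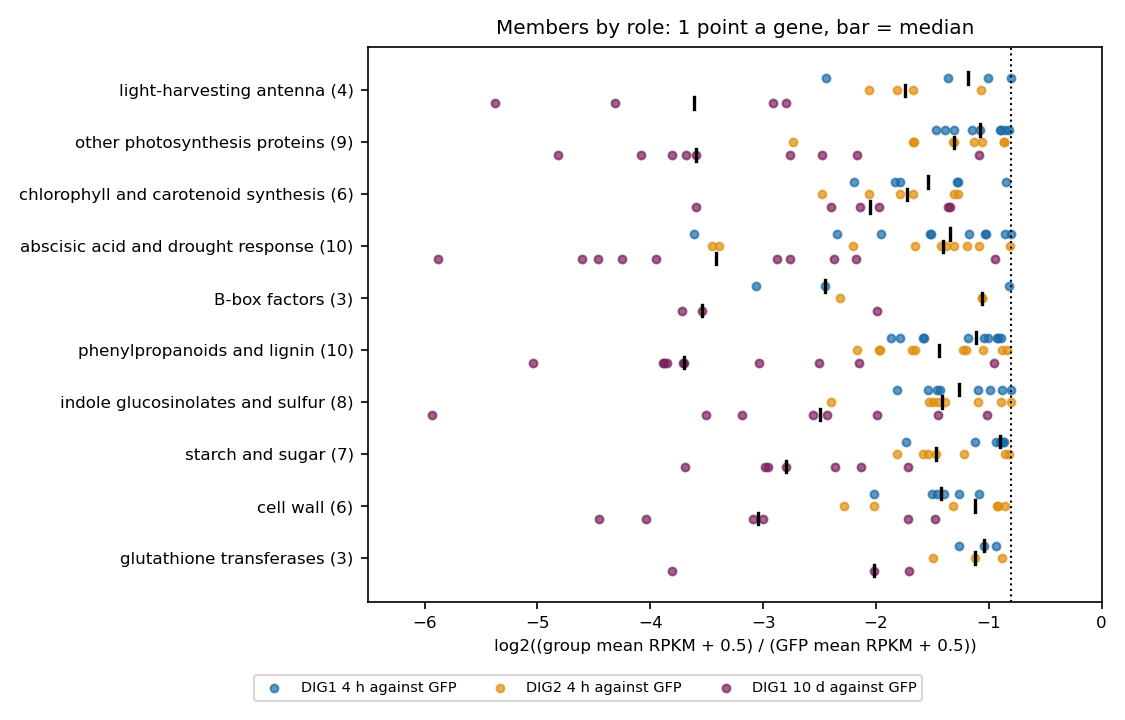
Log2 change against GFP of 66 members in 10 role groups, 1 point a gene and 1 colour a comparison, with a bar at each group's median and the dotted line at the threshold of -0.8; the number of genes stands in brackets. At 10 d the median was lowest for phenylpropanoid and lignin genes, at -3.70, and highest for the 3 glutathione transferases, at -2.01.

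The cell wall is the site of action of 6 members. GH9B1 (AT1G70710), an endoglucanase, had 27.6 and 31.6 RPKM in DIG1 and 23.2 and 25.8 RPKM in DIG2, against 115 and 127 RPKM in GFP seedlings at 4 h. At 10 d GH9B1 had 3.10 and 2.23 RPKM in DIG1, against 30.1 and 19.7 RPKM in GFP seedlings. XTH32 (AT2G36870), a xyloglucan endotransglucosylase, had 6.41 and 7.41 RPKM in DIG1 and 3.37 and 5.98 RPKM in DIG2, against 19.7 and 21.3 RPKM in GFP seedlings at 4 h. At 10 d XTH32 had 4.06 and 1.63 RPKM in DIG1, against 72.8 and 72.5 RPKM in GFP seedlings. That line and GFP libraries did not overlap for GH9B1 or XTH32 follows from the rule. XTH9 had log2 changes of -1.40, -0.92 and -4.04 in DIG1 at 4 h, DIG2 at 4 h and DIG1 at 10 d. Of the 14 other genes listed for wall loosening, 3 were higher and 5 lower in DIG1 at 4 h, and 3 higher and 3 lower in DIG2. At 10 d 2 of 15 were higher and 10 lower, with a median log2 of -1.48. The endoglucanase gene GH9C1, the extensin gene EXT13 and the arabinogalactan protein gene AGP25 had 10 d changes of -1.47, -1.72 and -3.09. The DIG1 replicates at 10 d lay far apart for EXT13, at 11.6 and 0 RPKM, and for GH9C1, at 1.63 and 0.478 RPKM.

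A further 3 members were among the 20 with a gene symbol and the lowest mean change. TLL1 (AT1G45201), a triacylglycerol lipase-like gene, had 1.71 and 1.50 RPKM in DIG1 and 0.832 and 1.16 RPKM in DIG2, against 5.25 and 7.49 RPKM in GFP seedlings at 4 h. At 10 d TLL1 had 6.16 and 3.57 RPKM in DIG1, against 152 and 88.3 RPKM in GFP seedlings. TCL2 (AT2G30424), a small MYB protein that represses trichomes, had 1.30 and 0.884 RPKM in DIG1 and 2.76 and 3.14 RPKM in DIG2, against 7.66 and 9.34 RPKM in GFP seedlings at 4 h. At 10 d TCL2 had 0.662 and 0.368 RPKM in DIG1, against 9.46 and 9.69 RPKM in GFP seedlings. SVB (AT1G56580), a gene of a plant-specific family known for its trichome branching mutant, had 97.5 and 85.6 RPKM in DIG1 and 38.0 and 59.1 RPKM in DIG2, against 191 and 192 RPKM in GFP seedlings at 4 h. At 10 d SVB had 13.6 and 15.7 RPKM in DIG1, against 232 and 243 RPKM in GFP seedlings. TCL2 was lower in DIG1 than in DIG2 in both libraries, and SVB was lower in DIG2 than in DIG1. Both were below every GFP library of the same time, as the rule required.

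Genes of other hormones were also members. IAA19, an auxin-induced repressor of auxin response, had 49.8 and 49.9 RPKM in DIG1 and 39.4 and 54.0 RPKM in DIG2, against 114 and 108 RPKM in GFP seedlings at 4 h. At 10 d IAA19 was listed at 0 in both DIG1 libraries, against 2.78 and 2.97 RPKM in GFP seedlings. Of the 18 other auxin response genes, 1 was higher and 2 lower in DIG1 at 4 h, and 12 were higher and 1 lower in DIG2 at 4 h. At 10 d 2 of 9 were higher and 2 lower. The jasmonate repressor JAZ1, the auxin influx carrier LAX3 and the cytokinin synthesis enzyme IPT3 were members, with 10 d changes of -2.35, -3.43 and -1.98. Members among transcription factors also included SVP, a MADS-box repressor of flowering, with log2 changes of -1.16, -0.88 and -4.54, and WOX1, a homeobox factor of leaf blades, with -1.83, -1.46 and -2.24, in DIG1 at 4 h, DIG2 at 4 h and DIG1 at 10 d.

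KAT1, the potassium channel of guard cells, had log2 changes of -1.20, -1.32 and -1.72 in DIG1 at 4 h, DIG2 at 4 h and DIG1 at 10 d. Of the 6 other guard cell markers listed at each time, limma called 1 lower in DIG2 at 4 h, and 1 higher and 2 lower in DIG1 at 10 d. It called 0 in DIG1 at 4 h, where 1 had an unadjusted p under 0.05 and limma voom called 0. The 6 were not the same genes at both times: HT1 and MYB61 were among them only at 4 h, and OZS1 and ALMT12 only at 10 d. At 4 h the 6 markers other than KAT1 summed to 382 and 331 RPKM in DIG1 and 428 and 467 RPKM in DIG2, against 388 and 421 RPKM in GFP seedlings. At 10 d the 6 of that time summed to 1113 and 1044 RPKM in DIG1, against 1512 and 1285 RPKM in GFP seedlings. Nearly all of that sum was TGG1, a myrosinase, with 1083 and 1015 RPKM in DIG1, against 1478 and 1247 RPKM in GFP seedlings at 10 d. FMA, a bHLH factor of guard cell fate, had 18.5 and 19.8 RPKM in DIG1, against 14.6 and 15.6 RPKM in GFP seedlings at 10 d. ALMT12 had 1.447 and 1.395 RPKM in DIG1, against 6.86 and 7.16 RPKM in GFP seedlings at 10 d. OZS1 had 0.498 and 0.770 RPKM in DIG1, against 1.66 and 1.53 RPKM in GFP seedlings at 10 d. KAT2 and MYB60 were also lower in both DIG1 libraries than in both GFP libraries at 10 d. Limma voom called 1 of the 6 higher and 4 lower in DIG1 at 10 d. Members were 195 of 16393 genes, and root markers, of which 8 of 12 were listed at 4 h and 7 at 10 d, held none. RSL4 and MYB66 were among the root markers only at 4 h, and SHV2 only at 10 d. Root markers summed to 406 and 359 RPKM in DIG1 and 458 and 602 RPKM in DIG2, against 481 and 483 RPKM in GFP seedlings at 4 h. At 10 d they summed to 40.7 and 37.8 RPKM in DIG1, against 66.3 and 87.5 RPKM in GFP seedlings. For root markers limma called 2 lower in DIG1 at 4 h and 5 lower in DIG1 at 10 d. It called 0 in DIG2, where 2 had an unadjusted p under 0.05 and limma voom called 0. No marker of these lists was at 0 in any library, and none of the 6 seed markers was listed at either time. Both sums were lower in both DIG1 libraries than in both GFP libraries at 4 h and at 10 d, and their part in the results was not tested. The lists for cold and touch factors and for the circadian clock held no member either. With so small a share of genes being members, such absences say little for short lists. Of 7 cold and touch factors, 1 was higher and 1 lower in DIG1 at 4 h, 2 higher and 1 lower in DIG2, and 4 higher and 2 lower in DIG1 at 10 d. Of 13 clock genes, 3 were higher and 2 lower in DIG1 at 4 h, 4 higher and 3 lower in DIG2, and 9 higher and 3 lower in DIG1 at 10 d.

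The comparison of DIG1 with DIG2 at 4 h was not used to choose the members and could be tested, although it rests on the same line libraries and both lines had to lie below GFP. With limma and Benjamini-Hochberg adjustment over all 17371 genes, 16 members differed: 8 were higher and 8 lower in DIG1 than in DIG2. That is 8.21% of members, beside 0.622% of all genes higher and 1.74% lower in DIG1. At an unadjusted p under 0.05, 73 members differed, or 37.4%, beside 17.4% of all genes. Over all members the median difference was 0.16 on the log2 scale, and 125 were higher and 70 lower in DIG1, beside a median of 0.00 over all genes. This shift rests on 1 library: without DIG2 replicate 1 the median was -0.02, with 94 members higher and 101 lower in DIG1, and without DIG2 replicate 2 it was 0.27, with 142 higher and 53 lower. The count of calls also rests on single libraries. Over all genes it fell whichever line library was left out. Among members it rose without DIG2 replicate 2 and fell without any of the others. Without a variance trend 6 members and 149 genes were called, against 16 members and 410 genes with it.

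BBX17 was lower in DIG1, with a difference of -2.005 ± 0.15 (SE, adjusted p = 0.000383) on the log2 scale by limma. AT1G01390, a glycosyltransferase gene, had 5.35 and 4.60 RPKM in DIG1 and 11.6 and 10.7 RPKM in DIG2, a difference of -1.09 ± 0.12 (SE, adjusted p = 0.00384). ELIP2 was higher in DIG1, with a difference of 1.35 ± 0.13 (SE, adjusted p = 0.0015). BBX17, AT1G01390 and ELIP2 were the 3 members called in every alternative fit of this contrast. AT5G62280, of an unnamed family, had 31.6 and 34.7 RPKM in DIG1 and 51.2 and 53.8 RPKM in DIG2, a difference of -0.66 ± 0.09 (SE, adjusted p = 0.00747), and its call was lost only without DIG1 replicate 1, at an adjusted p of 0.0514. Each of the other 12 calls was lost in 3 or more of the alternative fits. Lower in DIG1 among these were TCL2 at -1.13 ± 0.19 (SE, adjusted p = 0.018), PRR1 at -0.72 ± 0.15 (SE, adjusted p = 0.0425) and the hydrolase gene AT2G18360 at -0.74 ± 0.16 (SE, adjusted p = 0.0496). So were the EF-hand gene AT2G34020 at -0.54 ± 0.11 (SE, adjusted p = 0.0338) and AT5G16030 at -0.52 ± 0.11 (SE, adjusted p = 0.0338). Higher in DIG1 were KIN2 at 1.05 ± 0.18 (SE, adjusted p = 0.0197), SVB at 0.94 ± 0.17 (SE, adjusted p = 0.0239), CaS at 0.81 ± 0.12 (SE, adjusted p = 0.00906) and LUT2 at 0.65 ± 0.12 (SE, adjusted p = 0.0279). The nuclease gene CAN was also higher, at 0.63 ± 0.11 (SE, adjusted p = 0.0229), as were EMB2799 at 0.48 ± 0.10 (SE, adjusted p = 0.0333) and HEMA1 at 0.42 ± 0.09 (SE, adjusted p = 0.0456). For the members not yet given by library, AT2G18360 had 2.63 and 2.1 RPKM in DIG1 and 3.92 and 4.63 RPKM in DIG2, and AT2G34020 had 26.0 and 24.2 RPKM in DIG1 and 34.1 and 39.2 RPKM in DIG2. AT5G16030 had 10.5 and 12.1 RPKM in DIG1 and 16.9 and 15.9 RPKM in DIG2. CaS had 95.3 and 114 RPKM in DIG1 and 55.2 and 63.7 RPKM in DIG2, CAN had 10.2 and 11 RPKM in DIG1 and 6.62 and 6.67 RPKM in DIG2, and EMB2799 had 23.9 and 23.6 RPKM in DIG1 and 16.5 and 17.1 RPKM in DIG2. In the samples, both DIG1 libraries lay on the same side of both DIG2 libraries for all 16. This order adds no support, because the same libraries gave the calls.

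**Figure D5:**
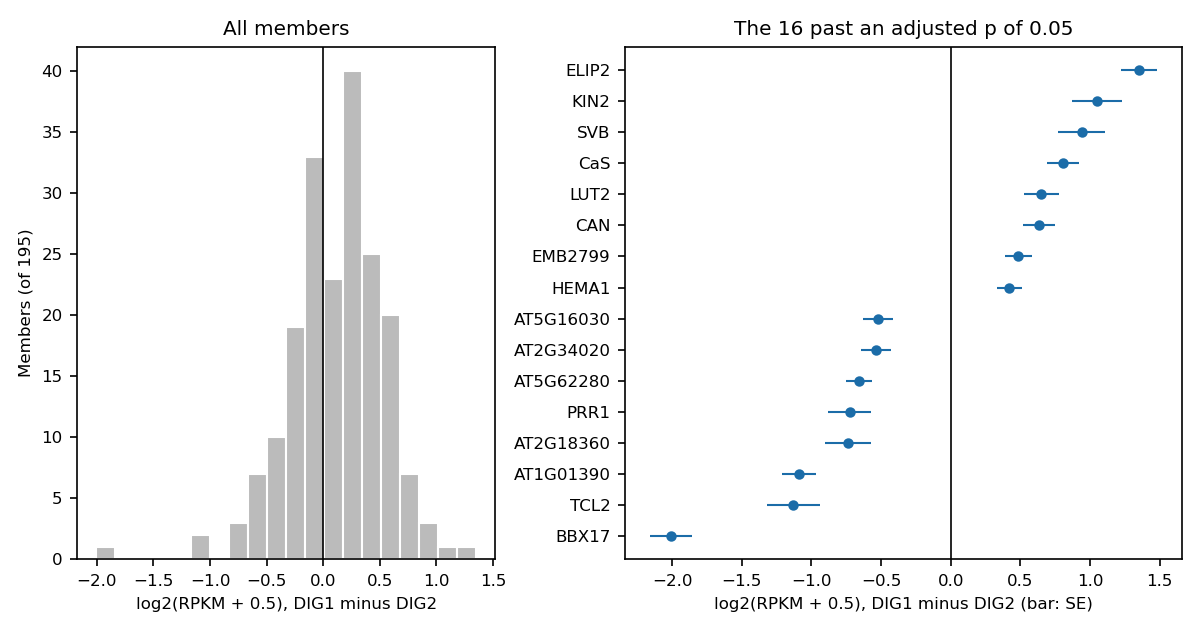
Difference between DIG1 and DIG2 at 4 h on the log2(RPKM + 0.5) scale: a histogram over the 195 members (left), and the 16 members past an adjusted p of 0.05 with a bar of 1 SE (right). BBX17 was at -2.005 and ELIP2 at 1.35, and the median of all members was 0.16.

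The replicates of DIG2 lay apart in the members. In DIG2 at 4 h, replicate 1 was below replicate 2 for 160 of 195 members, or 82.1%, beside 49.1% of all genes, with a median difference of -0.28 on the log2 scale. In GFP at 4 h, replicate 1 was below replicate 2 for 69.2% of members, beside 51.8% of all genes, with a median difference of -0.10. In DIG1 at 4 h the share was 47.7% and the median difference 0.02. At 10 d the share was 45.1% in DIG1 and 50.3% in GFP seedlings. Every member kept both line replicates below both GFP replicates, as the rule required.

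The median level of the members was 6.62 RPKM in DIG1 and 6.01 RPKM in DIG2, against 17.2 RPKM in GFP seedlings at 4 h, where it was 14.2 over all genes of both tables. At 10 d it was 2.47 RPKM in DIG1, against 22.9 RPKM in GFP seedlings. GFP levels of the members at 4 h ran from 1.56 to 3029 RPKM. The genes lay on all 5 chromosomes, with 44, 29, 29, 39 and 54 members on chromosomes 1 to 5. In 7 pairs the members lay within 10000 bases of each other, among them GSTU18 and ERD9 (1:3395551-3398358), both glutathione transferase genes, CYP81F3 and CYP81F4 (4:17583992-17592920), AKN2 and CYP79B2 (4:18519599-18527602), and RBCS3B and RBCS1B (5:15376988-15385320), in TAIR10.1 coordinates. The other 3 pairs were CA1 and LSF1, AT4G27435 and PORB, and AT5G13100 and G6PD2. CA1 and LSF1 overlap, as do GSTU18 and ERD9, so how reads were assigned there is uncertain. Median gene length was 2133 bases in members and 2532 bases in all genes. An annotated gene on the opposite strand overlapped 47 members. The library kit keeps strand, but the strand setting of the authors' counting is not given in the sources used here, so reads of such pairs may not be told apart.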

How the data were processed

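RNA from whole seedlings was sequenced from a stranded mRNA library kit. Per the submitters' processing notes the build was TAIR10, with HTSeq 0.5.4 and edgeR 3.6.2 among the tools. An aligner is not named in the sources used here. Per the file headers, the authors deposited for each time a table of RPKM per gene and library, with a log2 fold change and an FDR, an adjusted p-value, for each line against GFP. Columns name DIG1 and DIG2 by another abbreviation and were joined by line, time and replicate number.

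The members, the lists and the role groups were chosen with earlier results of these data known. Tests were run on log2(RPKM + 0.5) with limma 3.58.1 in R 4.3.3, two-sided, with a variance trend and Benjamini-Hochberg adjustment over all 17371 genes at 4 h (6 libraries) or 17433 at 10 d (4 libraries), threshold 0.05. The fit was checked on simulated data. The deposited values are RPKM, and the planned edgeR test was not run, nor was it run on the whole reads recovered from them. Whole reads, recovered for 99.98% of genes in each table within 0.001 read, gave depths and 1 added alternative, limma voom. By rule, the 20 members with a symbol and the lowest mean of the 3 log2 changes are given by library, and every member on a list or past the threshold between DIG1 and DIG2 is named; others were picked after their values were seen, for a role. All 195 members matched TAIR10.1 by locus and 113 have a symbol. Counts of replicates differed beyond sampling noise in all 5 groups (chi-square per degree of freedom 4.79 to 10.5). The list symbols that matched no single locus, 9 in all, were left out.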

Additional observations from a re-analysis of the deposited data

Results flagged for a closer look

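All results in this part are members whose level differed between DIG1 and DIG2 at 4 h in a test of that difference itself (limma, adjusted over all genes). Differences are DIG1 minus DIG2 on the log2(RPKM + 0.5) scale, in 2 libraries each. Lower in DIG1 were BBX17 at -2.005, TCL2 at -1.13, AT1G01390 at -1.09, AT2G18360 at -0.74, PRR1 at -0.72, AT5G62280 at -0.66, AT2G34020 at -0.54 and AT5G16030 at -0.52. Higher in DIG1 were HEMA1 at 0.42, EMB2799 at 0.48, CAN at 0.63, LUT2 at 0.65, CaS at 0.81, SVB at 0.94, KIN2 at 1.05 and ELIP2 at 1.35. The same line libraries entered the choice of members, which set both lines below GFP.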

How the results depend on the processing

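The number of genes lowered in all 3 comparisons, 195, was 109 at a threshold of -1, all of them among the 195, and 175 to 223 without 1 library. With no variance trend the genes called were 1695 in DIG2 against GFP and 149 in DIG1 against DIG2, and 6 members were called in that contrast. On only the 4 libraries compared, 271 genes and 9 members differed between DIG1 and DIG2. Without 1 library, calls ranged from 476 to 817 for DIG1 against GFP at 4 h, 915 to 2012 for DIG2 against GFP at 4 h, 8089 to 9509 for DIG1 against GFP at 10 d and 123 to 250 for DIG1 against DIG2, with 4 to 22 members. Without DIG2 replicate 2, 7 of the 16 members called were still called. Scaling by median ratios, pseudocounts of 0.1 and 1 and a floor of 1 RPKM kept each of these counts within 1.5 times. Limma voom on recovered reads, added after seeing the data, called 17 members, 13 of them among the 16. With the replicate block, 1630, 2783, 478 and 10528 genes were called for DIG1 and DIG2 against GFP at 4 h, DIG1 against DIG2 and DIG1 against GFP at 10 d, and 17 members between DIG1 and DIG2. Deviations of same-numbered libraries correlated at 0.02, 0.16, -0.01 and 0.04, of which only 1 is over 0.1, and no label ties the numbers to a shared source, so the replicate number was not taken as a pairing. The causes of these shifts were not tested. Low reads limit the members at 10 d, where 34 and 45 had fewer than 10 reads in the DIG1 libraries.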

Other observations

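Some members had DIG1 replicates at 10 d that lay far apart. With 0.5 added to each value, 23 of 195 members differed more than 2-fold between them. EXT13 had 11.6 and 0 RPKM in DIG1, against 18.4 and 22.0 RPKM in GFP seedlings. The lipid transfer gene AT5G46890 had 7.65 and 0.359 RPKM in DIG1, against 19.0 and 16.8 RPKM in GFP seedlings. The peroxidase gene AT3G49960 had 3.15 and 0.0430 RPKM in DIG1, against 9.62 and 10.4 RPKM in GFP seedlings. AT1G78230 went the other way, with 0.0583 and 1.97 RPKM in DIG1, against 17.2 and 17.2 RPKM in GFP seedlings.

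In GFP seedlings, both 10 d libraries were above both 4 h libraries for 108 members, or 55.4%, beside 34.2% of all genes, and below them for 62 members, or 31.8%, beside 49.7% of all genes. These tables were normalized separately, and the seedlings differ in age, light and dexamethasone dose.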
